A study of Mus musculus with 6 samples.

Results

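The 40 genes described here encode the machinery of mitosis, the step of the cell cycle in which duplicated chromosomes are separated before the cell divides. They were chosen by name: cyclins, mitotic kinases, spindle checkpoint and kinetochore proteins, spindle motors, cytokinesis factors and some others, among them Ccdc18. The choice was made with earlier results of these data known, in which Ccnb2, Cenpa and Ccdc18 had been seen to be lower in old. Each of the 40 names matched a row of the deposited table, which holds 29587 gene rows. The data were RNA-seq profiles of mouse apoptotic osteoblasts, with 3 libraries labelled young and 3 labelled old. In both groups, marrow stromal cells grown from bone pieces were passaged, turned toward osteoblasts in osteogenic medium and killed with ultraviolet light, and the labels list no treatment or genotype beyond this. Age in months, sex and strain were not stated in the labels used here. Nor do the labels say whether replicates were separate mice or separate dishes, so the p-values reflect library-to-library spread, which may be only technical. The comparison asks which mitotic transcripts differ between dying osteoblasts of young and old mice.

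Entry into mitosis is driven by the kinase Cdk1 bound to a cyclin, and exit by the anaphase-promoting complex (APC/C), a ubiquitin ligase that has cyclins and securin destroyed. Transcripts of these genes build up together late in the cell cycle and are low in cells that have left it. Stromal progenitors divide in culture, and division slows as osteoblasts mature. In bulk RNA, fewer dividing cells and less of a transcript in each dividing cell cannot be told apart.

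Promoters of mitotic genes are known for a short element near the transcription start, the cell cycle genes homology region (CHR), and for upstream CCAAT boxes bound by the factor NF-Y. Promoters are printed for Ccnb2, Cenpa and Ccdc18, the genes called lower in old, for Cdk1, Cdc20 and Top2a, which hold both kinds of letters, and for Pttg1 and Bub3, the genes in which the old libraries were not all below young replicates 2 and 3. Each runs from 150 bases before the RefSeq start to 30 bases after it (build GRCm38.p6), 5′ to 3′ on the strand of the gene. Capitals mark the hexamer TTTGAA, the related hexamer TTTAAA and the pentamer CCAAT wherever they stand on either strand.
Ccnb2, chr9:70421525-70421704, minus strand: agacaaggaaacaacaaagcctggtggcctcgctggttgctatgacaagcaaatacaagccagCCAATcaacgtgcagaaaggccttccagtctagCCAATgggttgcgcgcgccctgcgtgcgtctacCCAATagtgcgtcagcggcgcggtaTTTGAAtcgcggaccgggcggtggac
Cenpa, chr5:30666736-30666915, plus strand: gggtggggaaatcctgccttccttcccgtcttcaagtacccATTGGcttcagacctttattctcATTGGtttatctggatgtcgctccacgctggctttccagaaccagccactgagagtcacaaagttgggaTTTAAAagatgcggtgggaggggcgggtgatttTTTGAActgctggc
Ccdc18, chr5:108132764-108132943, plus strand: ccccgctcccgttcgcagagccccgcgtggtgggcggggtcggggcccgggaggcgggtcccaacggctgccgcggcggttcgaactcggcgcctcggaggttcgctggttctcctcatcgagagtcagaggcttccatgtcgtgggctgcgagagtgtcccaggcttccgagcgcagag
Cdk1, chr10:69352883-69353062, minus strand: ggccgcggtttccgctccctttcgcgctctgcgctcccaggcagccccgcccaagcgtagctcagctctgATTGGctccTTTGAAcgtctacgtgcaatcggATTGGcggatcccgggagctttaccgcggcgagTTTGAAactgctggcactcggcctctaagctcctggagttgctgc
Cdc20, chr4:118437314-118437493, minus strand: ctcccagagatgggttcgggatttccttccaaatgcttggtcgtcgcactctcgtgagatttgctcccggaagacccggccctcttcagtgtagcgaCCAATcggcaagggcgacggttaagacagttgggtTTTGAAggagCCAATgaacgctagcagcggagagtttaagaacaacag
Top2a, chr11:99024160-99024339, minus strand: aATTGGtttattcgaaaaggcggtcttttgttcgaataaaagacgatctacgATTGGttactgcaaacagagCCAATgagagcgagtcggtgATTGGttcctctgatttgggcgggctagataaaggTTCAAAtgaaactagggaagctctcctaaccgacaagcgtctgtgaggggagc
Pttg1, chr11:43425952-43426131, minus strand: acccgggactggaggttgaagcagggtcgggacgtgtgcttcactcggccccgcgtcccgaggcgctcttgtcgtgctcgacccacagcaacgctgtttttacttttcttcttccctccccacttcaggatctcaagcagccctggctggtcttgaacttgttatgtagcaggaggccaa
Bub3, upstream start, chr7:131560220-131560399, plus strand: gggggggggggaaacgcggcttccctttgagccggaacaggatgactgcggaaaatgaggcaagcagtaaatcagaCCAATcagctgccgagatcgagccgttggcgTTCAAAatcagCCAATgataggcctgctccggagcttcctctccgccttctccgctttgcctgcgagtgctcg
Bub3, downstream start, chr7:131560344-131560523, plus strand: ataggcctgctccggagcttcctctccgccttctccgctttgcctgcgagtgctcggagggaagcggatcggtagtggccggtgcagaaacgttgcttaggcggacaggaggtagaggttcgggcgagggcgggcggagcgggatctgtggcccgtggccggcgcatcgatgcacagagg
Ccnb2, Cenpa, Cdk1, Cdc20 and Top2a hold both kinds of letters, while the windows of Ccdc18 and Pttg1 hold neither. The Pttg1 window lies wholly inside the gene, whose 5′ end stands at 43426251 in the deposited table. A promoter at that end of Pttg1 was therefore not read. The windows that held the matches of Cdca8, Kif2c and Kif4 also lie inside their genes as the deposited table places them. Bub3 has a pair of RefSeq starts, and the window of the upstream one holds both kinds while that of the downstream one holds neither.

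RefSeq promoters were found for 34 of the 40 genes. Of these 34, 26 (76.5%) held either CHR hexamer in the 180-base window, against 18.8% of all 27025 genes with a promoter and 12.3% of the 7805 of those that were tested for expression here. CCAAT stood in 25 of the 34 (73.5%), against 30.3% and 34.7%. Both kinds stood in 23 of the 34 (67.6%), against 5.33% and 4.34%. The window and the motifs were chosen after matches in other windows and to other motifs had been seen. That choice may favour the shares of the 34 genes. These 34 genes have 37 promoters, since some have several starts, and a site shared by overlapping windows was counted once, by its nearer start. The 31 sites of a CHR hexamer had a median distance of -5 bases from the start, and 25 of them lay between -50 and 30 bases. The 49 sites of CCAAT had a median of -55 bases, further upstream than the CHR sites but near the middle of the window. Of these 49 sites, 20 lay between -50 and 30 bases. Evenly scattered sites would also have a median near the middle, so no preferred place of CCAAT was shown. Neither placement was tested against even scatter. With all 6 libraries, the median log2 fold change, old against young, was -0.41 in the 26 genes with a CHR hexamer and -0.43 in the 8 without, and -0.38 with CCAAT and -0.43 without. Leaving out young replicate 1, a library described below, the medians were -0.53 with a CHR hexamer and -0.40 without, and -0.53 with CCAAT and -0.31 without. Among 93 other mitosis genes with a promoter, the medians with and without a CHR hexamer were -0.25 and -0.13 with all 6 libraries. No test was made of these differences. A match describes letters only, not a bound site.

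**Figure D1:**
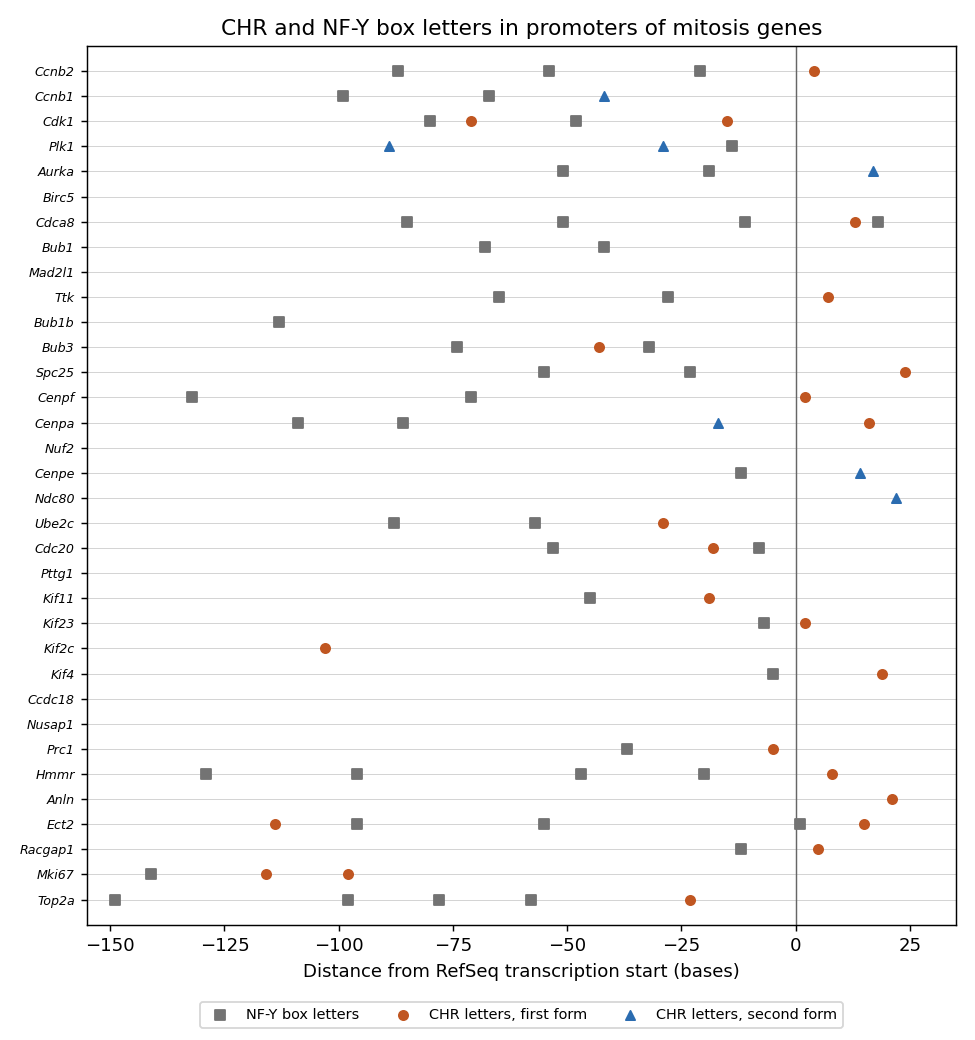
Sites of the CHR hexamers and of the NF-Y box in promoters of 34 mitosis genes, by distance in bases from the RefSeq transcription start, each counted once. Of the 31 CHR sites, 25 lie between -50 and 30 bases, as do 20 of the 49 NF-Y box sites. The median of the NF-Y box sites is -55 bases, near the middle of the window.

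All 40 genes were expressed in every library. The lowest value was 2.39 RPKM (reads per kilobase of gene length, scaled to library size, so that levels of different genes can be compared), and at least 766 reads stood behind each value. Library depth was 64881180 to 84535939 reads. Osteoblast identity was checked on marker genes: the young and old means of the collagen gene Col1a1 were 1550.2 ± 424 and 1528 ± 31.8 RPKM (± SD over 3 libraries each), those of the osteoblast regulator Runx2 5.11 ± 0.809 and 3.91 ± 0.203 RPKM, and those of Sp7, which acts after Runx2, 8.44 ± 0.567 and 4.90 ± 0.0281 RPKM. Of the 11 osteoblast genes 9 were tested and 2 called, in opposite directions. Sp7 fell by 0.68 on the log2 scale (limma adjusted p = 0.0186), and Spp1 (osteopontin) rose by 1.36, from 290.4 ± 75.9 to 732 ± 68.6 RPKM (SD; limma adjusted p = 0.0307). Alpl and Bglap were under 1 RPKM in every library. Summed levels of other lineages reached at most 0.0550 RPKM for 3 pan-leukocyte genes, 0.0506 for 3 lymphocyte genes, 0.0574 for 3 erythroid genes, 0.139 for 5 endothelial genes and 0.0223 for 3 adipocyte genes in any library. The 9 macrophage genes summed to 8.42 to 9.67 RPKM in young and 9.79 to 11.1 RPKM in old, most of it Lyz2, while Adgre1 and Itgam were near 0. Col2a1 and Sox9, of the chondrocyte list, summed to 34.2 to 73 RPKM in young and 53 to 56.6 RPKM in old. The 7 stromal genes summed to 62.4 to 71.9 RPKM in young and 61.1 to 66.3 RPKM in old, and of the 4 tested 0 were called. The part of these in the results was not tested.

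Young replicate 1 stood apart from the other libraries and touches every result below. The chi-square per degree of freedom of its read numbers was 482.6 against young replicate 2 and 381.2 against young replicate 3, where that between young replicates 2 and 3 was 21.6. Against the old libraries it was 227.1 to 315.4, so by this measure it was nearer to old than to its own group. Young replicates 2 and 3 had values of 77.1 to 156.4 against the old libraries. Among the 40 mitosis genes it lay below both other young libraries in 27 and above both in 12. The same was so for 57.2% and 36.4% of the 12015 genes tested. Results are therefore given with all 6 libraries and again without this library.

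Levels of the mitosis genes were lower in old than in young as a group, and few single genes passed the test with all 6 libraries. The log2 fold change (old minus young, computed throughout from log2(RPKM + 1) values) was negative in 40 of 40 genes, against 48.8% of all genes tested. It ran from -0.79 to -0.08 with a median of -0.38, where the median of all genes was 0.01. In 25 of the 40 every old library was below every young one, against 10.2% of all genes, and in 0 of the 40 every old library was above, against 10.6%. The 40 genes were read in the same 6 libraries and are not independent, and they were listed with earlier results known. Such counts describe the list, and no test was made over it. Limma called 3 of the 40 lower (Ccdc18, Cenpa and Ccnb2) at a Benjamini-Hochberg adjusted p under 0.05 over all genes tested, against 0.0999% of all genes. It called 0 higher, against 1.47%. The 3 genes called had been seen to be lower in these data before the list was made. At an unadjusted limma p under 0.05 there were 21 lower and 0 higher, against 5.25% and 5.98% of all genes. At a looser adjusted p under 0.1, limma called 7 lower and 0 higher, against 0.516% and 2.11%, and the added genes were Cdca8, Top2a, Nusap1 and Cdc20. Voom on reads recovered from the RPKM values called 1 lower (Ccdc18) and 0 higher, against 0.0666% and 1.35%. None of the limma calls at 0.05 remained when any library other than young replicate 1 was left out.

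Without young replicate 1, limma called 35 of the 40 lower, against 19.4% of all genes, and 0 higher, against 13.2%. The unadjusted p was under 0.05 for 37 lower genes and 1 higher gene, against 28.4% and 17.6% of all genes. The median log2 fold change of the 40 was -0.44, and that of all genes -0.05. All 3 genes called with 6 libraries were among the 35. Every old library was below young replicates 2 and 3 in 38 of the 40, against 38.8% of all genes, the exceptions being Bub3 and Pttg1. The 5 genes not called were Bub3, Pttg1, Ccna2, Incenp and Ube2c. With libraries weighted by their agreement with their group, so that young replicate 1 counted least, limma called 37 lower and 0 higher, against 24.6% and 17.6%.

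**Figure D2:**
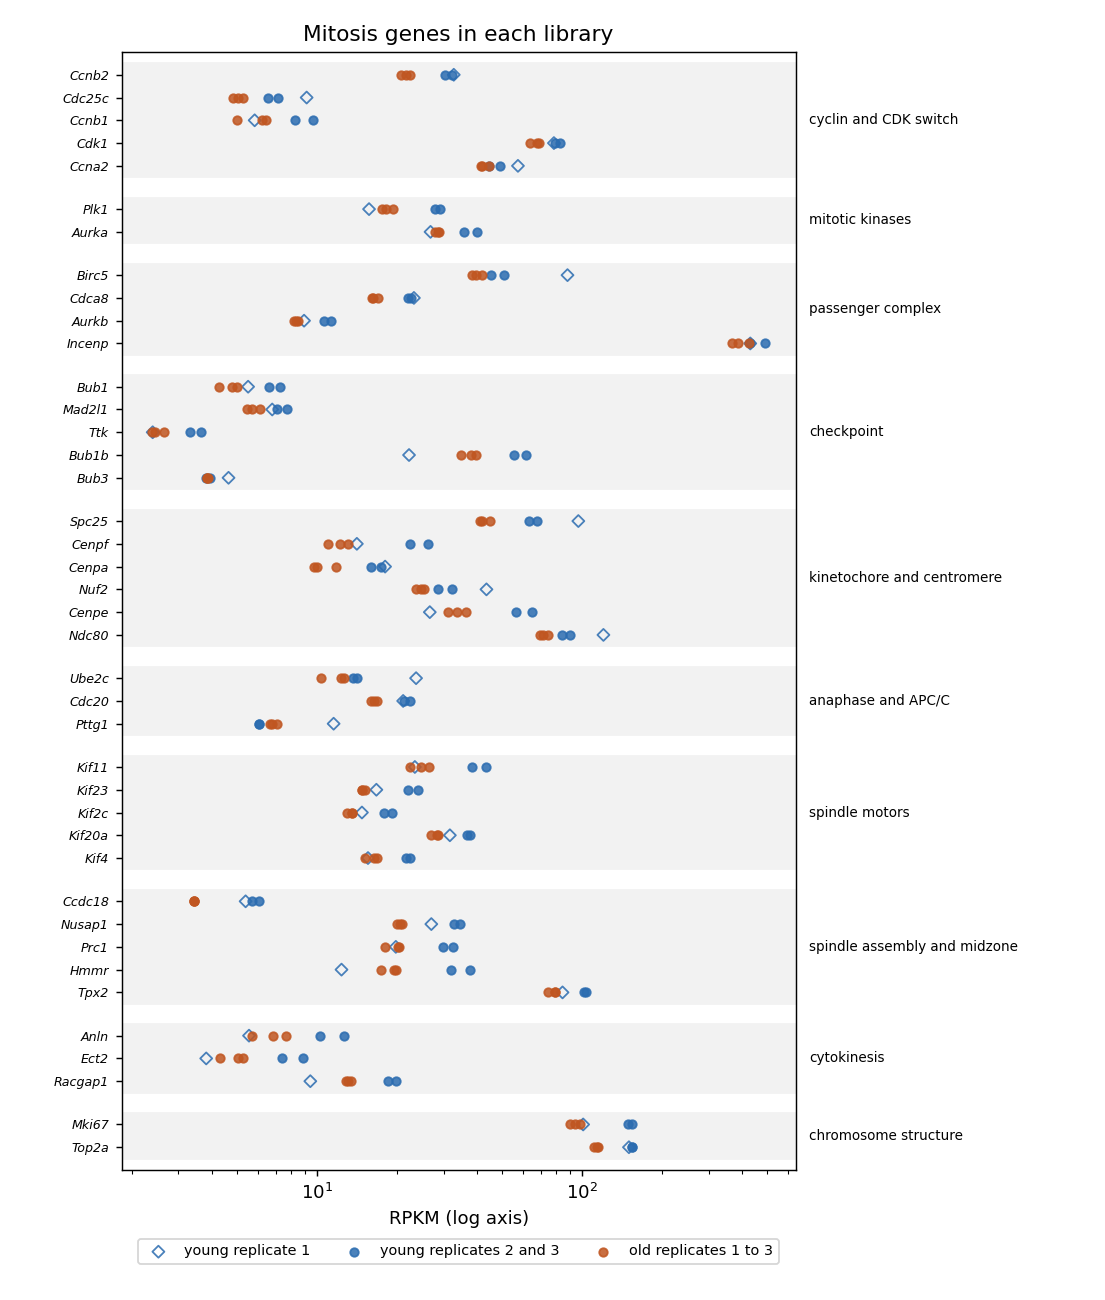
RPKM (log axis) of the 40 mitosis genes in each of the 6 libraries, grouped by role, with young replicate 1 as open diamonds, young replicates 2 and 3 as blue points and old replicates as orange points. Old points lie to the left of young replicates 2 and 3 in 38 of the 40 genes, while young replicate 1 lies below both of these in 27 genes and above both in 12.

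Cyclins and Cdk1 form the switch into mitosis. The B-type cyclin gene Ccnb2 (chromosome 9, 70407692 to 70421547, mm10) read 32.8, 30.4 and 32.4 RPKM in young replicates 1, 2 and 3, and 21.7, 22.5 and 20.7 RPKM in the old ones. The groups were apart, and young replicate 1 sat with its own. Ccnb2 fell by 0.54 ± 0.08 on the log2 scale (standard error; adjusted p by limma = 0.0391), and its mean RPKM was 32.1% lower in old. Cdk1, the kinase these cyclins activate, read 78.3, 79.3 and 82.6 RPKM in young, then 68.8, 63.7 and 67.4 RPKM in old. These groups did not overlap either, but the log2 fold change was smaller, -0.26 ± 0.08 (standard error; adjusted p by limma = 0.295). Ccnb1, the other B-type cyclin gene, read 5.82, 9.62 and 8.24 RPKM in young, then 6.43, 4.98 and 6.20 RPKM in old. Young replicate 1 fell within the old range, and the log2 fold change was -0.35 ± 0.19 (standard error; adjusted p by limma = 0.613). The remaining members, Ccna2 (a cyclin of S phase and G2) and Cdc25c (a phosphatase that activates Cdk1), were highest in young replicate 1, at 57.3 and 9.14 RPKM, and their groups did not overlap. In the fit without young replicate 1, Ccnb2, Cdk1, Ccnb1 and Cdc25c fell (limma adjusted p = 0.00220, 0.0129, 0.0153 and 0.00847), and Ccna2 had a log2 fold change of -0.13 (limma adjusted p = 0.143).

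Plk1 and Aurka are kinases of centrosome maturation and spindle formation. Plk1 read 15.7, 29.2 and 27.8 RPKM in young, then 19.3, 17.6 and 18.2 RPKM in old. Young replicate 1 was the lowest of the 6 libraries, so the groups overlapped, and the log2 fold change was -0.34 ± 0.23 (standard error; adjusted p by limma = 0.767). Aurka had the same arrangement, with 26.8, 40.2 and 36 RPKM in young, then 28.8, 27.8 and 28.7 RPKM in old, and a log2 fold change of -0.24 ± 0.15 (standard error; adjusted p by limma = 0.724). When it was left out, Plk1 fell by 0.61 and Aurka by 0.41 on the log2 scale (limma adjusted p = 0.00121 and 0.00576).

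The chromosomal passenger complex joins the kinase Aurkb to Incenp, Birc5 (survivin) and Cdca8 (borealin) and corrects faulty attachments of chromosomes to the spindle. In all 4 genes the old libraries were below the young, against 10.2% of all genes. Cdca8 read 23.2, 22.1 and 22.7 RPKM in young, then 16.3, 17 and 16.1 RPKM in old. Both groups were tight, and the log2 fold change was -0.44 ± 0.08 (standard error; adjusted p by limma = 0.0651). Birc5 spread widely in young, because young replicate 1 read 88.1 RPKM where the others read 45.1 and 50.8 RPKM, and the old range was 38.3 to 42 RPKM. Incenp stood apart in level, with 431, 430.5 and 489 RPKM in young, then 389, 427 and 367 RPKM in old. It was the highest of the 40 in every library and ranked 129 to 169 among all genes, whereas its partner Aurkb had means of 10.3 RPKM in young and 8.35 RPKM in old. Leaving that library out, Aurkb, Birc5 and Cdca8 fell (limma adjusted p = 0.00624, 0.0328 and 0.00297), and Incenp had a log2 fold change of -0.22 (limma adjusted p = 0.0897).

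Spindle checkpoint proteins hold anaphase back until all chromosomes are attached. The checkpoint kinase gene Bub1 read 5.50, 7.24 and 6.59 RPKM in young, then 4.79, 4.26 and 5 RPKM in old. The groups did not overlap, young replicate 1 was the young library nearest to old, and the log2 fold change was -0.38 ± 0.12 (standard error; adjusted p by limma = 0.291). Mad2l1, whose protein restrains Cdc20, did not overlap between groups either, with means of 7.18 RPKM in young and 5.75 RPKM in old. Bub1b, which encodes the inhibitor BubR1, read 22.2 RPKM in young replicate 1 but 61.4 and 55.1 RPKM in replicates 2 and 3, with an old range of 34.8 to 39.6 RPKM between them. Ttk, the kinase gene of lowest level among the 40, read 2.40 RPKM in young replicate 1, within the old range of 2.39 to 2.65 RPKM. Bub3, a binding partner of Bub1 and BubR1, had the smallest log2 fold change, -0.08, with a 95% interval of -0.31 to 0.15. Without young replicate 1, Bub1, Mad2l1, Bub1b and Ttk fell (limma adjusted p = 0.00736, 0.0165, 0.00289 and 0.0122), while Bub3 stood at -0.01 (limma adjusted p = 0.941).

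Kinetochore and centromere genes had a median log2 fold change of -0.56 over 6 genes with all 6 libraries and -0.61 without young replicate 1. The first was the most negative of the 10 roles, but without that library spindle assembly and midzone genes were at -0.65 and cytokinesis genes at -0.64, and roles were not tested against each other. Cenpa, the histone H3 variant that marks centromeres (chromosome 5, 30666777 to 30674830, mm10), read 18.1, 16 and 17.5 RPKM in young, then 9.98, 11.8 and 9.75 RPKM in old. The lowest young library was above the highest old one. Cenpa fell by 0.66 ± 0.11 on the log2 scale (standard error; adjusted p by limma = 0.0462), and its mean RPKM was 38.7% lower in old. Ndc80, Nuf2 and Spc25 encode parts of the complex that grips microtubules. All 3 were highest in young replicate 1, with every old library below the young, against 10.2% of all genes. Spc25 had the most negative log2 fold change of the 40, -0.79 ± 0.17 (standard error; adjusted p by limma = 0.113), from 96.8, 63 and 67.3 RPKM in young, then 41.9, 44.9 and 41.2 RPKM in old. The large kinetochore proteins Cenpf and Cenpe (a motor) showed the reverse, with young replicate 1 as the lowest young library. It read 14.1 RPKM for Cenpf and 26.6 RPKM for Cenpe, where the other young libraries read 26.2 and 22.4 RPKM for Cenpf and 64.8 and 56.2 RPKM for Cenpe. The old range of Cenpf, 11 to 13.1 RPKM, lay below it and that of Cenpe, 31.1 to 36.4 RPKM, above it. All 6 fell without young replicate 1, by 0.28 to 0.95 on the log2 scale (limma adjusted p = 0.00128 to 0.0198), where 19.4% of all genes were called lower.

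Chromosome separation is triggered by the APC/C, which has securin destroyed. Cdc20, the activator of the APC/C, read 21.1, 22.3 and 21.4 RPKM in young, then 16.8, 16 and 16.4 RPKM in old. Both groups were tight and apart, with a log2 fold change of -0.38 ± 0.08 (standard error; adjusted p by limma = 0.0997). Ube2c, the ubiquitin-conjugating enzyme of the APC/C, read 23.6 RPKM in young replicate 1, 13.7 and 14.1 RPKM in replicates 2 and 3, and 10.4 to 12.6 RPKM in old. Pttg1, which encodes securin, read 11.6, 6.06 and 6.04 RPKM in young, then 6.67, 7.08 and 6.75 RPKM in old. Its old libraries lay above young replicates 2 and 3 and below young replicate 1, which was so for no other gene of the 40. Its log2 fold change was -0.13 with all libraries (limma adjusted p = 0.968) and 0.15 without young replicate 1 (limma adjusted p = 0.0747). Cdc20 fell in that fit (limma adjusted p = 0.00407), and Ube2c stood at -0.22 (limma adjusted p = 0.0861).

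Spindle motors slide and depolymerise microtubules. Kif20a, a motor of the central spindle, read 31.7, 37.9 and 36.7 RPKM in young, then 28.5, 26.9 and 28.2 RPKM in old. The groups did not overlap, and the log2 fold change was -0.33 ± 0.10 (standard error; adjusted p by limma = 0.261). Kif23, also of the central spindle, and Kif2c, a microtubule depolymerase, did not overlap either. Kif11, which pushes spindle poles apart, and the chromosome-bound motor Kif4 did, since young replicate 1 read 23.4 and 15.6 RPKM, inside the old ranges of 22.5 to 26.5 and 15.1 to 16.8 RPKM. All 5 fell without young replicate 1, by 0.41 to 0.71 on the log2 scale (limma adjusted p = 0.00112 to 0.00515), where 19.4% of all genes were called lower.

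Ccdc18 (chromosome 5, 108132875 to 108233628, mm10), which encodes a coiled-coil protein and is grouped here with spindle assembly, had the smallest p of the 40. It read 5.38, 6.07 and 5.71 RPKM in young, then 3.44, 3.43 and 3.43 RPKM in old. The old libraries were almost identical, and the lowest young library was well above them. Ccdc18 fell by 0.60 ± 0.08 on the log2 scale (standard error; adjusted p by limma = 0.0260), and its mean RPKM was 39.9% lower in old. Nusap1, which bundles microtubules, and Tpx2, which activates Aurka on the spindle, had log2 fold changes of -0.59 and -0.31 without overlap between groups. Hmmr, a spindle-associated hyaluronan receptor, read 12.4 RPKM in young replicate 1, below the old range of 17.4 to 19.9 RPKM, and 37.7 and 32 RPKM in the other young libraries. Prc1, which crosslinks midzone microtubules, read 19.8 RPKM in young replicate 1, inside the old range of 18 to 20.4 RPKM. All 5 fell without young replicate 1 (limma adjusted p = 0.000384 to 0.00349), where 19.4% of all genes were called lower.

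Cytokinesis genes build and position the contractile ring. Anln, an actin-binding ring protein, read 5.54, 12.6 and 10.2 RPKM in young, then 6.82, 5.69 and 7.61 RPKM in old. Young replicate 1 was the lowest of the 6 libraries, and the log2 fold change was -0.38 ± 0.28 (standard error; adjusted p by limma = 0.790). Ect2, an activator of RhoA, and its midzone partner Racgap1 had the same arrangement, with 3.82 and 9.44 RPKM in young replicate 1 and old ranges of 4.29 to 5.24 and 12.8 to 13.5 RPKM. All 3 fell without it (limma adjusted p = 0.00179 to 0.0103), where 19.4% of all genes were called lower.

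Top2a, a topoisomerase that untangles chromosomes, and Mki67, a coat protein of mitotic chromosomes, are widely used as markers of dividing cells. Top2a read 150.2, 154 and 155 RPKM in young, then 115, 111 and 114 RPKM in old. All 3 young libraries lay close together and above the old, with a log2 fold change of -0.43 ± 0.08 (standard error; adjusted p by limma = 0.0754). Mki67 read 101, 155 and 149 RPKM in young, then 94, 89.98 and 98.4 RPKM in old. Young replicate 1 lay just above the old libraries, and the log2 fold change was -0.49 ± 0.18 (standard error; adjusted p by limma = 0.368). With that library left out, Top2a fell by 0.44 and Mki67 by 0.69 on the log2 scale (limma adjusted p = 0.00172 and 0.000570).

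**Figure D3:**
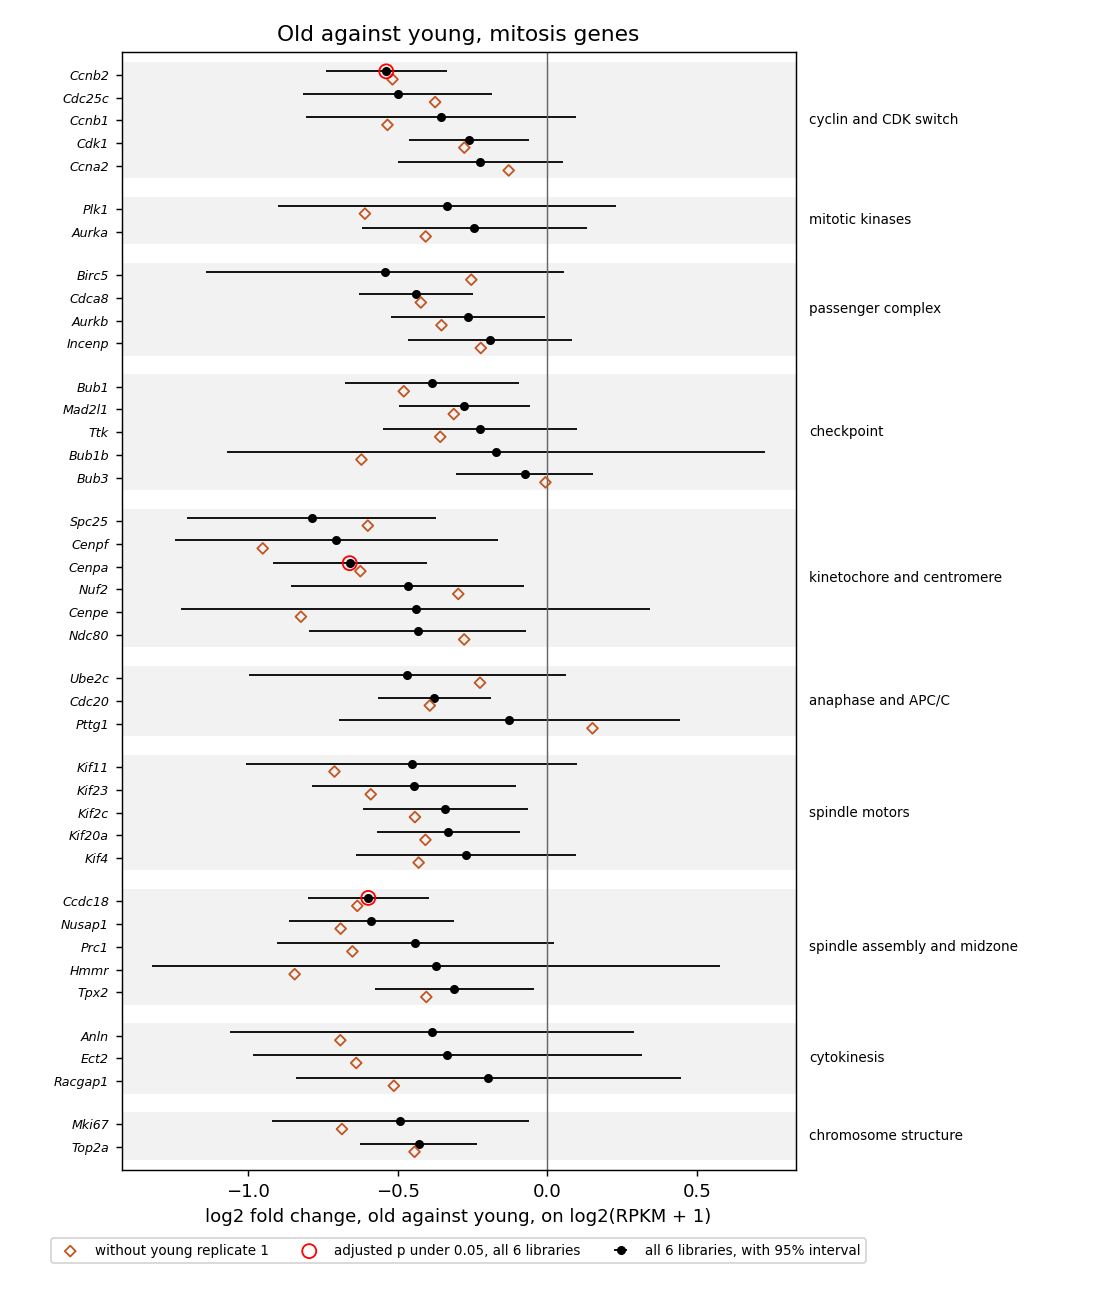
Log2 fold change, old against young on log2(RPKM + 1), of the 40 mitosis genes by role, with all 6 libraries (black points, bars are limma 95% intervals, red rings mark an adjusted p under 0.05) and without young replicate 1 (open diamonds). All 40 values with 6 libraries lie below 0, and 21 intervals lie entirely below 0.

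The deviation of young replicate 1 from the mean of young replicates 2 and 3 differed among the genes in sign and size. On the log2 scale it ran from -1.42 in Hmmr, -1.35 in Bub1b and -1.15 in Cenpe to 0.73 in Ube2c, 0.83 in Pttg1 and 0.87 in Birc5. In the called genes it was small, at 0.06 in Ccnb2, 0.11 in Cenpa and -0.11 in Ccdc18. A large deviation widens the spread within young and makes a call less likely, so these small values follow in part from the calls. The median over the 40 was -0.27, and over all genes tested -0.14. Longer genes tended to be lower in that library: Pearson's r of the deviation with log2 gene length was -0.44 over the 40 genes and -0.21 over 11655 tested genes, and with GC content 0.17 and -0.05. These points are genes of the same 3 libraries and are not independent. Mitochondrially encoded reads made up 1.05% of young replicate 1 and 1.616 to 2.293% of the other 5 libraries. The part of gene length, GC content or RNA quality in the results was not tested beyond the fit that follows.

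**Figure D4:**
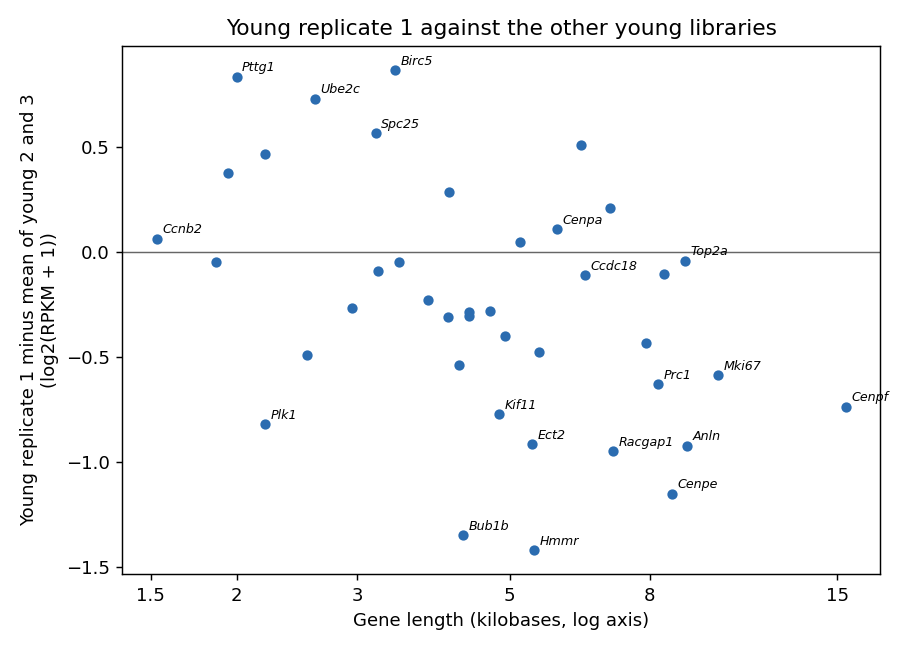
Young replicate 1 minus the mean of young replicates 2 and 3 on log2(RPKM + 1), against gene length (log axis), with 1 point for each of the 40 mitosis genes. Points run from -1.42 (Hmmr) to 0.87 (Birc5).

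When loess trends on gene length and GC content were taken out of every library, an alternative chosen after seeing the data, limma called 0 of the 40 lower and 0 higher, against 0.0999% and 2.3% of all genes. At an unadjusted p under 0.05 there were 12 lower and 0 higher, against 2.31% and 13%. The median of all genes was 0.11 in that fit and that of the 40 genes -0.25, a distance of -0.36 between them, against -0.39 without this step. Of the 40 genes, 38 were negative. Some exons overlap genes on the opposite strand, and the labels do not state whether counting used strand, so the values of the 9 members concerned are uncertain. The overlap takes up 33.2% of the length of Kif20a (with Cdc23), 22.8% of Ube2c (with Tnnc2), 15.1% of Kif4 (with Pdzd11), 12.5% of Ccna2 (with Exosc9) and 11.1% of Prc1 (with Rccd1), and 7.1% of Plk1, 4.5% of Cdca8, 4.2% of Nusap1 and 2.8% of Cdc20.

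A second list, of further regulators, kinetochore, condensin, cohesin, APC/C and spindle genes, had 116 genes in the table, and 113 were tested. Their median log2 fold change was -0.21, with 97 of 113 negative (85.8%, against 48.8% of all genes). Every old library was below the young in 43 and above in 4, against 10.2% and 10.6% of all genes. Limma called 0 of the 113, and voom on the recovered reads also called 0. At an unadjusted limma p under 0.05 there were 33 lower (29.2%, against 5.25% of all genes) and 1 higher (against 5.98%). The smallest p-values belonged to Depdc1a, the kinase gene Pbk and Sgol1, a protector of centromeric cohesion. Depdc1a read 4.21, 5.06 and 5.14 RPKM in young, then 2.74, 2.35 and 3.12 RPKM in old (limma adjusted p = 0.0744). Pbk read 11.4, 10.2 and 10.3 RPKM in young, then 7.68, 7.36 and 7.06 RPKM in old (limma adjusted p = 0.0754). For Sgol1 the values were 12.2, 13.4 and 12.6 RPKM in young, then 9.44, 8.72 and 9.56 RPKM in old (limma adjusted p = 0.0952). The groups were apart in all 3 genes, which follows in part from choosing them by their p-values. By subgroup, the median was -0.32 over 30 spindle, motor and cytokinesis genes and -0.02 over 15 APC/C genes. Without young replicate 1, limma called 65 of the 113 lower (57.5%, against 19.4% of all genes) and 5 higher (4.42%, against 13.2%). The difference between this list and the 40 genes was not tested.

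DNA replication genes, which act in the preceding S phase, had a median log2 fold change of -0.08 over 43 genes. Of these 30 were negative (69.8%, against 48.8% of all genes). Limma called 0, and voom called 0. At an unadjusted limma p under 0.05 there were 3 lower (6.98%, near the 5.25% of all genes) and 0 higher (against 5.98%). In the fit without young replicate 1, limma called 10 lower (23.3%, near the 19.4% of all genes) and 0 higher (against 13.2%). The difference between mitosis and replication genes was not tested. Of the inhibitors of cyclin-dependent kinases 4 were tested. Limma called 0, with 2 lower and 1 higher at an unadjusted p under 0.05, against 5.25% and 5.98% of all genes. Voom also called 0. The higher one was Cdkn1a, a p53 target that arrests the cycle, at 27.5, 29.8 and 26.2 RPKM in young, then 34.2, 32.2 and 32 RPKM in old (limma adjusted p = 0.398). Cdkn2c, one of the lower ones, read 21.4, 21.8 and 20.8 RPKM in young, then 16.1, 14.8 and 16.5 RPKM in old (limma adjusted p = 0.0925). Leaving out young replicate 1, limma called all 4: Cdkn1a rose (adjusted p = 0.0456), and Cdkn1b, Cdkn2c and Cdkn2d fell (adjusted p = 0.00772, 0.00584 and 0.0357). That fit called 13.2% of all genes higher and 19.4% lower, and 4 genes are too few to compare with these shares. Cdkn1a and Cdkn2c were named after their values were seen.

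**Figure D5:**
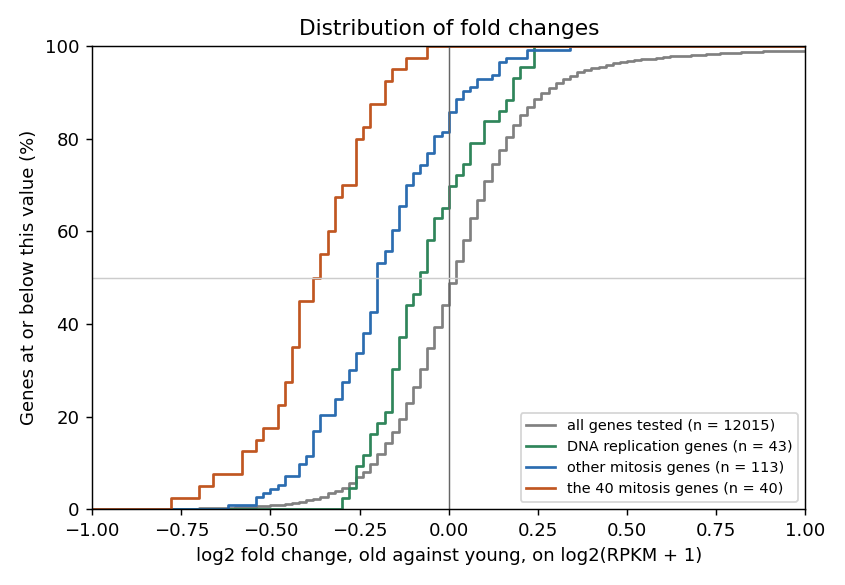
Cumulative share of genes (%) at or below each log2 fold change, old against young on log2(RPKM + 1), for the 40 mitosis genes, 113 other mitosis genes, 43 DNA replication genes and all 12015 genes tested. The medians are -0.38, -0.21, -0.08 and 0.01.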

How the data were processed

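RNA was sequenced from 3 young and 3 old libraries. The submitters' processing notes name fastp, STAR, HTSeq, edgeR and the build mm10, and no source used here gives their versions or the annotation. The authors deposited RPKM, with gene lengths in bases, for 29587 gene rows, and 0 columns belonged to no sample. Values times length were whole numbers of reads within 0.01 for 100% of values, and these recovered reads gave the depth. Among genes with 1 to 5 reads, 77.5 to 79.3% had even numbers, so reads are not independent molecules.

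Groups were taken from the titles. The 12015 genes with at least 1 RPKM in at least 3 libraries were tested with limma 3.58.1 (R 4.3.3) on log2(RPKM + 1), two-sided, old against young with no covariate, using trended variances and Benjamini-Hochberg adjustment over all these genes and calls made below an adjusted p of 0.05. This scale understates changes of low genes. The script was tested on simulated data. The members, lists and naming rule were chosen with earlier results of these data known, in which Ccnb2, Cenpa and Ccdc18 had been seen to be lower. By that rule, values in every library are given for called genes, for 6 well-known members (Mki67, Top2a, Cdk1, Ccnb1, Plk1 and Bub1) and for the member of smallest p in each role. Values of Spp1 and of some further members, given for the place of young replicate 1 in them, were named after they were seen.

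Alternatives were pseudocounts of 0.1 and 0.5, no filter, a mean of at least 5 RPKM, other scalings and variance models, library weights, other thresholds, voom on recovered reads, a replicate block, removal of a length trend, and leaving out each library. Length and GC trends together were removed in an alternative added after seeing the data. When a library was left out, the set of genes tested was kept as with all 6; at first the filter was recomputed, and this was changed after counts had been seen, which left the members' counts as they were. The promoter window and the motifs were chosen after matches in other windows and to other motifs had been seen, and no test is attached to them. Promoters were matched by symbol to RefSeq's table.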

Additional observations from a re-analysis of the deposited data

How the results depend on the processing

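The median log2 fold change of the 40 mitosis genes was negative under all 19 alternatives that gave a new fit, from -0.44 to -0.25. Some of these could not move it: no filter, no variance trend, robust variance and the replicate block kept it at -0.38. In each of the 19 that tested them, 37 genes were negative. Bub1b was positive without young replicate 2 or 3, Pttg1 without young replicate 1, with library weights and with length and GC trends removed, and Bub3 with length and GC trends removed. The number of the 40 called lower was 37 with library weights, 7 at an adjusted p under 0.1, 1 with voom on recovered reads (Ccdc18), and 0 with the replicate block, with length and GC trends removed or with a log2 fold change of at least 1. Leaving out 1 library gave 0 to 35, with 35 without young replicate 1 and 0 without each other library. Ccnb2 lost its call in 11 alternatives, Cenpa in 14 and Ccdc18 in 8. With library weights young replicate 1 had a weight of 0.0425, and the others 0.819 to 4.12.

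Over all genes tested, 177 were higher and 12 lower in old. Higher calls were 99 at a mean RPKM of at least 5, 2119 with library weights, 82 with the replicate block, 276 with length and GC trends removed, 106 at a log2 fold change of at least 1, and 80 to 1589 leaving out 1 library. Lower calls were 2957 with library weights, 0 with the replicate block, 21 with the length trend removed, 62 at an adjusted p under 0.1, 0 at a log2 fold change of at least 1, and 0 to 2329 leaving out 1 library. Other mitosis genes, of which 113 were tested, gave 4 higher and 70 lower calls with library weights, against 17.6% and 24.6% of all genes. Those genes gave 1 lower call with median of ratios scaling, 2 with quantile scaling and 3 at an adjusted p under 0.1 (against 0.516% of all genes). Leaving out 1 library gave 0 to 5 higher and 0 to 65 lower among them. The 43 DNA replication genes gave 16 lower calls with library weights, against 24.6% of all genes, and 0 to 10 leaving out 1 library. In each range the highest count is the one without young replicate 1, a fit that called 13.2% of all genes higher and 19.4% lower. The cause was not tested. Replicate numbers pair no samples by the labels, and deviations of same-numbered libraries correlated at -0.03, -0.44 and 0.33 across genes. The replicate block left the median at -0.38, as it must where each replicate number occurs once in each group. Where a library was left out, its group has 2 libraries and the fit pools the spread over both groups.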
